A study of Homo sapiens with 12 samples.

Results

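Transcript levels of 9 genes that mark or regulate the neuroendocrine lineage were examined in 2 prostate cancer cell lines, 22RV1 and C4-2B, with and without an oligonucleotide called the 56-mer. The genes were taken by symbol from the deposited expression tables and make up 9 of the 60314 entries with a symbol. They are the granins CHGA, CHGB, SCG2 and SCG3, the surface and vesicle markers SYP and NCAM1, the transcription factors INSM1 and NKX2-1, and the repressor REST. All 9 had at least 1 read among the 6 libraries of 22RV1, but only 5 did among the 6 libraries of C4-2B.

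The 4 groups were 22RV1 with 56-mer, 22RV1 control, C4-2B with 56-mer and C4-2B control, with 3 libraries each that the series text calls biological triplicates. The labels give the genotype of both lines as WT. All cells, controls included, received L-Gln (glutamine) at 2 mM for 48 h in otherwise glutamine-free RPMI medium with serum, and the treated cells also received the 56-mer, an aptamer or folded nucleic acid ligand, at 50 nM. C4-2B is a castration-resistant derivative of the LNCaP line and 22RV1 is a castration-resistant line that came from a xenograft, so each line is a single cell line and libraries of a group do not sample different tumours. Nothing in the labels says how the triplicate cultures were separated, and p-values measure the spread between these libraries.

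Neuroendocrine cells of the prostate epithelium store peptide hormones in dense-core granules. Granins are the acidic proteins that pack these granules, synaptophysin (SYP) is a membrane protein of small vesicles, and pathologists stain for CHGA, SYP and NCAM1 (CD56) to recognise neuroendocrine tumours. INSM1 is a zinc finger factor that drives endocrine differentiation, and NKX2-1 (TTF-1) is a homeobox factor of lung and thyroid that is also seen in small cell carcinomas. REST, a zinc finger repressor, binds the RE1 element beside neuronal and neuroendocrine genes and silences them outside the nervous system with the corepressors RCOR1 and SIN3A. The neural splicing factor SRRM4 inserts an exon into REST transcripts that truncates the repressor, and values per gene symbol do not separate such isoforms.

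The stretches just before the transcription starts of CHGA, SYP, SCG3 and REST are printed because the levels of these 4 genes differ between the lines as described below. RefSeq sequence of the 250 bases before a start was given for 5 of the 9 genes, NKX2-1 being the other one, on build GRCh38.p14, and for CHGB, INSM1, NCAM1 and SCG2 no window was used. Each line runs 5′ to 3′ in the direction of the gene, and capitals mark exact matches to short motifs searched on both strands.
CHGA, chr14:92922900-92923149, plus strand: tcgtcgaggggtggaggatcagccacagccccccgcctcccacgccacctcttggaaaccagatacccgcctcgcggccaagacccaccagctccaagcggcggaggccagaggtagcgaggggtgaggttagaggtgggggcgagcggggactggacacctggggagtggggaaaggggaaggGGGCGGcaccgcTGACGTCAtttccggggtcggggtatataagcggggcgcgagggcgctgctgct
SYP, chrX:49200194-49200443, minus strand: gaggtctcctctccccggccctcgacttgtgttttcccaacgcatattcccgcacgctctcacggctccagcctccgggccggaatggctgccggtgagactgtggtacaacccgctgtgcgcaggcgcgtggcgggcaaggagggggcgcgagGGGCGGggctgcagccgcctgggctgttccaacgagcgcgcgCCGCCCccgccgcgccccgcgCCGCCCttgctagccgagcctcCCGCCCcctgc
SCG3, chr15:51681253-51681502, plus strand: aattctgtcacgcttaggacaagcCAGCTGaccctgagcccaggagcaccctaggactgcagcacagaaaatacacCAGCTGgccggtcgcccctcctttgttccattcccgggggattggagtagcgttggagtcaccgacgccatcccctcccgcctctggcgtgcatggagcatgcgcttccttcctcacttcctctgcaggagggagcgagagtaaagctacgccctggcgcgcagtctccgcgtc
REST, chr4:56907650-56907899, plus strand: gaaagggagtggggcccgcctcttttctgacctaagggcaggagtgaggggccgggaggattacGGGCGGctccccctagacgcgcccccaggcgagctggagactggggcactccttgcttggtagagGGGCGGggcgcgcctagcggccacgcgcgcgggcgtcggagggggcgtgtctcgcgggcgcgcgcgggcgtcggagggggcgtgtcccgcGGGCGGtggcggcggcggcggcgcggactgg

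The CHGA window held a cAMP response element, TGACGTCA, that began 54 bases before the start, and a GC box, GGGCGG, that began at 66 bases. The SYP window held 4 GC boxes, 3 of them on the other strand as CCGCCC, and the REST window held 3. SCG3 had none of these and 2 copies of the E-box CAGCTG, at 226 and 174 bases before the start. An NKX2-1 motif, CAAGTG, was present once among these genes, 147 bases before an alternative start of NKX2-1 itself. The core of the RE1 element was in no window of the 5 genes. Over all 35116 RefSeq windows of the same length, 1.65% held TGACGTCA, 14% CAGCTG, 42.6% GGGCGG, 9.50% CAAGTG and 0.0456% the RE1 core. No 2 of these motifs share bases in the printed windows. A match describes the letters of the window and does not show that a factor binds there.

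The values are normalized read counts, that is, reads per gene divided by a size factor for the library, and each line was normalized separately by the authors. Between 8847368 and 13740386 reads per library stand behind them in 22RV1 with 56-mer, 11834331 to 13586045 in 22RV1 controls, 12277758 to 12508539 in C4-2B with 56-mer and 10245014 to 13627140 in C4-2B controls. Genes with at least 1 read numbered 28342 to 31010 per library of 22RV1 and 20779 to 22686 per library of C4-2B. Where levels are set across lines or genes, the recovered reads are given as RPM, scaled to equal library totals, or as RPKM, which also divides by exon length. Luminal prostate markers were present in both lines: all 10 of a list passed the filter on low values in each, led by keratin KRT8 with 781 RPM in 22RV1 controls and 618 in C4-2B controls. Of 9 markers of leukocytes, endothelium and fibroblasts, PTPRC had 1 read in the controls of each line, and CD3E, PECAM1 and CDH5 had none. VWF had 9 reads in 22RV1 controls and 428 in C4-2B controls, CD68 had 55 and 404, and COL1A1 had 896 and 1115. COL1A2 had 66 and 0, and DCN had 8 and 0. Fewer cells of a type and less RNA per cell cannot be told apart in such bulk libraries.

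The granins CHGA, CHGB and SCG3 were abundant in 22RV1 and at or near 0 in C4-2B. CHGB, a granule core protein, had 1086, 1165 and 1231 normalized read counts in 22RV1 controls and 0 in all 3 C4-2B controls. SCG3, which tethers granule contents to the membrane, had 974.9, 967.4 and 896.5 in 22RV1 controls and 0 in C4-2B controls. CHGA, the standard serum and tissue marker, had 518, 371 and 520 in 22RV1 controls, against 0, 1.14 and 0 in C4-2B controls. SCG2, the precursor of secretoneurin, was the lowest of these 4 granins in 22RV1, with 61.0, 36.5 and 39.6 there, against 0, 0 and 8.47 in C4-2B controls. In each of the 4 granins every 22RV1 library lay above every C4-2B library, treated libraries included.

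Reads were also pooled over the 3 control libraries of a line and compared as RPM. CHGB had 3633 reads in 22RV1 and 0 in C4-2B, at least 1129-fold higher when 3 reads over the group are taken as the floor. SCG3 had 2947 reads and 0, at least 916-fold higher. CHGA had 1474 reads and 1, a ratio of 1374 with a 95% interval of 246 to 54296. SCG2 had 142 reads and 10, a ratio of 13.2 with an interval of 6.99 to 28.2. These intervals cover counting error only, and the floor covers only that of the count of 0. Because the tables of the lines were normalized separately, the ratios are descriptions without a test.

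SYP and NCAM1, the other common stains, lay far apart from each other. SYP had 843, 634 and 749 normalized read counts in 22RV1 controls, against 35.3, 2.28 and 37.3 in C4-2B controls. Its pooled reads were 2319 in 22RV1 and 79 in C4-2B, a ratio of 27.4 (95% interval 21.9 to 34.7, counting error only). NCAM1, the neural cell adhesion molecule, was near 0 in both lines, with 11 reads in 22RV1 controls and 3 in C4-2B controls, a ratio of 3.42 whose interval of 0.903 to 19.1 includes 1. Its paralogue NCAM2 had 5357 reads in 22RV1 controls and 1909 in C4-2B controls. In 22RV1 SYP was thus well covered while NCAM1 rested on a handful of reads.

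Of the transcription factors, NKX2-1 had 63.0, 60.9 and 73.0 normalized read counts in 22RV1 controls and 0 in all 3 C4-2B controls. Its 206 pooled reads were at least 64.0-fold above the floor of 3 reads in C4-2B. INSM1 had 5 reads over the 22RV1 controls and 0 over the C4-2B controls. That is 1.55 times the floor, without the counting error of the 5 reads, and too few reads to place either line higher. INSM1 was thus barely detected in the same 22RV1 libraries in which CHGA, CHGB and SCG3 were abundant.

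REST, the repressor, was present in both lines and had the higher level in 22RV1, the line with the granins. It had 1505, 1789 and 1496 normalized read counts in 22RV1 controls, against 333, 364 and 442 in C4-2B controls. Pooled reads were 4967 in 22RV1 and 1152 in C4-2B, an RPM ratio of 4.02 (95% interval 3.77 to 4.29, counting error only). SRRM4, the splicing factor that acts on REST transcripts, had 20802 reads in 22RV1 controls and 0 in C4-2B controls, at least 6462-fold higher. Its relative SRRM3 had 3353 and 132 reads, a ratio of 23.7.

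**Figure D1:**
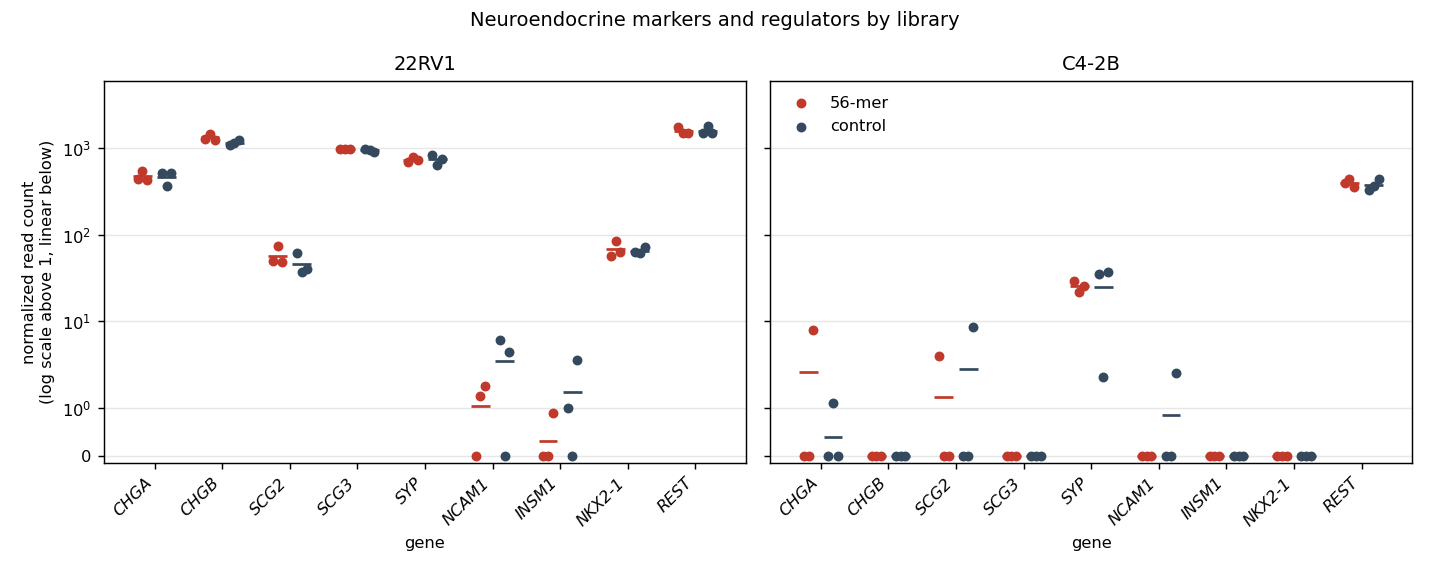
Normalized read counts of the 9 genes in each library of 22RV1 (left) and C4-2B (right), on a scale that is logarithmic above 1 and linear below. Each point is a library, 56-mer to the left of control, and bars are means of 3. CHGA, CHGB, SCG3 and SYP lie between 371 and 1470 in 22RV1, while in C4-2B REST is the only gene above 100 in any library.

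Between genes, control levels were compared as RPKM with exon lengths from GENCODE 29. In 22RV1 SCG3 led with 23.8 ± 1.05 RPKM (SD, n = 3, as for all values of this scale), followed by CHGB with 21.4 ± 1.35, and the libraries of both genes overlapped. REST came next with 16.7 ± 1.70 and did not overlap CHGB. CHGA with 12.6 ± 2.33 and SYP with 11.9 ± 1.69 overlapped each other and lay below REST. NKX2-1 with 1.73 ± 0.17 and SCG2 with 1.40 ± 0.41 formed a lower, overlapping pair, and INSM1 with 0.045 ± 0.054 and NCAM1 with 0.023 ± 0.020 were lowest. Among the 32830 genes with reads in 22RV1 controls, SCG3 stood at the 93.9th percentile, REST at the 90.1st and CHGA at the 86.3rd, but INSM1 at 6.52 and NCAM1 at 3.13. In C4-2B controls REST, with 4.08 ± 0.64 RPKM, was separate from all others, and SYP followed with 0.41 ± 0.32. SYP overlapped SCG2, with 0.090 ± 0.16, because control 2 held only 2 SYP reads.

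Genes that work beside the granins and SYP were also compared between the controls. Of 11 granins and prohormone processing genes, 10 were higher by RPM in 22RV1 and 7 by more than 10-fold. Over the 21647 genes tested in at least 1 line, 65.2% were higher in 22RV1 and 16.1% by more than 10-fold. The lists, unlike these 21647 genes, also hold genes under the filter. Counts of more than 10-fold, here and below, also required a minimum of pooled reads in 22RV1 controls. VGF, a granin-like neuropeptide precursor, had 96872 reads in 22RV1 controls and 781 in C4-2B controls, a ratio of 116. PCSK1N, an inhibitor of prohormone convertase 1, had a ratio of 40.9. The convertases themselves were sparse, with 39 PCSK1 reads and 10 PCSK2 reads in 22RV1 controls, against 3 and 0 in C4-2B controls. CPE, which trims the cut peptides, and PAM, which amidates them, had ratios of 6.39 and 6.81. SCG5, a chaperone of PCSK2, was the 1 gene of this list that was lower in 22RV1, with 34 reads against 52.

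Of 22 genes of secretory and synaptic vesicles, 17 (77.3%) were higher in 22RV1, 9 of them (40.9% of the list) by more than 10-fold. Among genes tested in at least 1 line these shares were 65.2% and 16.1%. The exocytic SNARE protein SNAP25 had 2169 reads in 22RV1 controls and 0 in C4-2B controls, and UNC13A, which primes vesicles, had 14734 and 13. The ratio was 37.4 for the calcium-binding vesicle protein SYT4. RAB3A, a vesicle GTPase, and SLC18A2, a monoamine transporter, were among the 4 that were lower in 22RV1, with 1011 and 254 reads in 22RV1 controls, against 1794 and 427 in C4-2B controls. Of the 6 relatives of synaptophysin, SYNGR1 and SYPL2 were higher in 22RV1, by 23.7 and 67.1 times, whereas the widely expressed SYPL1 and SYNGR2 were 2.98 and 2.51 times higher in C4-2B.

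Among 16 neuroendocrine transcription factors, 15 had a higher RPM in 22RV1, several of them on few reads and 5 by more than 10-fold. NEUROG3 had no read in either line. Of the genes tested in at least 1 line, 65.2% were higher in 22RV1 and 16.1% by more than 10-fold. ONECUT2 was the highest in both lines, with 4624 reads in 22RV1 controls and 214 in C4-2B controls. SOX11 had 802 and 28 reads and POU3F2 (BRN2) 204 and 4. NEUROD1, a neurogenic basic helix-loop-helix factor, had 11 and 0 reads. Of 15 neural adhesion, cytoplasmic and peptide markers, 11 (73.3%) were higher in 22RV1, near the 65.2% of the tested genes. ENO2 (neuron-specific enolase) had 8318 reads in 22RV1 controls and 572 in C4-2B controls. DDC, which makes dopamine and serotonin, went the other way with 58 and 4058 reads, and so did the Notch ligand DLL3 with 223 and 733.

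Textbook targets of REST were compared with its partners. Of 16 targets, among them CHGA, SYP and SCG3 themselves, 15 had a higher RPM in 22RV1 and 14 by more than 10-fold. Among genes tested in at least 1 line these shares were 65.2% and 16.1%. The glutamate receptor subunit GRIA2 had 1134 reads in 22RV1 controls and 0 in C4-2B controls, the sodium channel SCN2A had 507 and 0, and STMN2 had none in either. Of 19 genes of the REST complex and its regulators, 17 were higher in 22RV1, but 2 by more than 10-fold, SRRM3 and SRRM4. The corepressors RCOR1, RCOR2 and RCOR3 had ratios of 2.35, 6.56 and 2.08, and the ubiquitin ligase subunit BTRC, which marks REST for degradation, had 5.62. SIN3B and EHMT2 were 1.13 and 1.27 times higher in C4-2B.

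**Figure D2:**
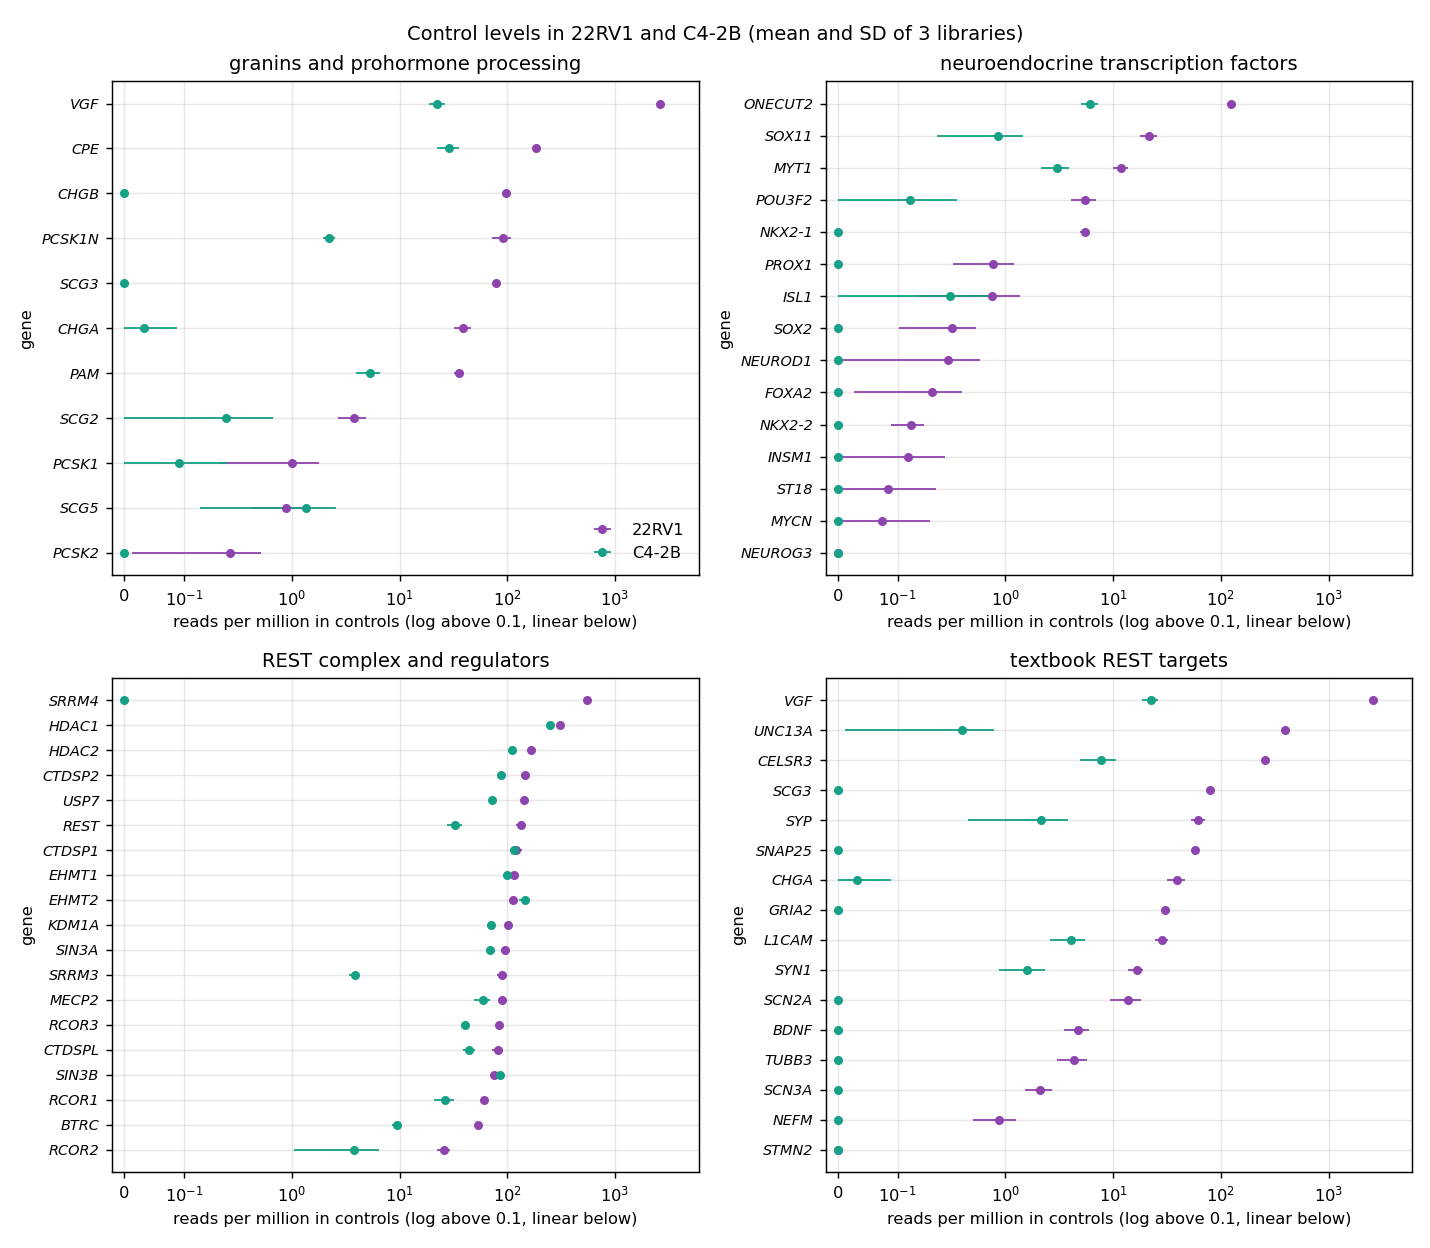
Control levels in RPM (logarithmic above 0.1, linear below) of 4 gene lists in 22RV1 and C4-2B, with means and SD of 3 libraries and lower bars ended at 0. Not every gene of the lists is drawn. The targets of REST sit apart between the lines, with SCG3, SNAP25, GRIA2 and others at 0 in C4-2B, whereas most genes of the REST complex lie closer together, apart from SRRM3 and from SRRM4, with 20802 reads in 22RV1 controls and 0 in C4-2B controls.

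The question of the treated libraries was whether 56-mer changed these genes. In 22RV1 0 of the 7 tested genes passed, where 2 of 20517 genes passed over the whole table (0.00975%; limma, Benjamini-Hochberg adjusted p under 0.05). A gene entered the test when 3 or more of the 6 libraries reached a normalized count of 10, which left out INSM1 and NCAM1. At an unadjusted p under 0.05 there was 1 gene, CHGB, where 3.91% of all tested genes lay under it, and neither edgeR nor DESeq2 called any of the 7. The 7 fitted log2 changes had a median of 0.037 and a range from −0.0034 to 0.32, against a median of −0.0026 over all tested genes, and 6 of 7 were above 0, as were 49.4% of all. Of these 6, SYP turned below 0 with quantile normalization, and SYP and CHGA with columns scaled to equal totals.

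CHGB had 1275, 1470 and 1262 normalized read counts in 22RV1 with 56-mer, against 1086, 1165 and 1231 in 22RV1 controls. All 3 treated libraries lay above all 3 controls, as in 4.45% of the tested genes, with 56-mer 3 close above control 3. The log2 change was 0.20 ± 0.089 (SE, n = 3 per group), a 1.15-fold difference with a 95% interval of 1.02 to 1.30, at an unadjusted limma p of 0.0287 and an adjusted p of 0.99958. It was 0.13 to 0.24 when any 1 library was left out. The unadjusted limma p rose to 0.204 without 56-mer 2, 0.155 without control 1 and 0.0538 without control 2. Without 56-mer 1, 56-mer 3 or control 3 it was 0.00658, 0.0182 and 0.0240. With all libraries but no trend or robust variance, the limma p of CHGB was 0.116. The authors' deposited table gives CHGB a log2 change of 0.20 in 22RV1 with an unadjusted p of 0.0307 and an adjusted p of 0.999995, which is the lowest adjusted p of that table.

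SCG3 was the other gene whose groups did not overlap, with 980.5, 981.1 and 981.0 in 22RV1 with 56-mer, against 974.9, 967.4 and 896.5 in 22RV1 controls. The gap between the groups was small, and the log2 change was 0.053 ± 0.092 (SE) with a 95% interval from −0.13 to 0.24. Groups without overlap were seen in 2 of the 7 genes, both higher with 56-mer, and in 9.03% of all tested genes, 4.45% higher and 4.58% lower. CHGA had 436, 548 and 430 in 22RV1 with 56-mer, against 518, 371 and 520 in 22RV1 controls, and its log2 change was 0.015 ± 0.13 (interval −0.25 to 0.28). The groups of CHGA overlapped, and its highest library was a treated one and its lowest a control. SCG2 had 49.1, 73.8 and 47.7, against 61.0, 36.5 and 39.6, a log2 change of 0.32 ± 0.32 (interval −0.33 to 0.96). At 36 to 61 reads per library the interval of SCG2 is wide and holds folds from 0.80 to 1.95.

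SYP had 694, 790 and 739 normalized read counts in 22RV1 with 56-mer, against 843, 634 and 749 in 22RV1 controls, and a log2 change of 0.0055 ± 0.11 (SE; interval −0.21 to 0.22). The treated values lay within the range of the controls. NKX2-1 had 56.2, 84.7 and 63.6, against 63.0, 60.9 and 73.0, a log2 change of 0.037 ± 0.28 (interval −0.52 to 0.59). INSM1 had 0, 0 and 0.88 in 22RV1 with 56-mer, against 1.0, 0 and 3.5 in controls, and NCAM1 had 0, 1.37 and 1.77, against 6.0, 0 and 4.4. These 2 genes rested on 1 and 3 reads in all with 56-mer and 5 and 11 in controls, too few for a difference to be detectable at this depth.

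REST had 1746, 1517 and 1509 normalized read counts in 22RV1 with 56-mer, against 1505, 1789 and 1496 in 22RV1 controls. The log2 change was −0.0034 ± 0.086 (SE), and its interval from −0.18 to 0.17 leaves room for a fold between 0.89 and 1.12. The spread came from 1 library in each group, 56-mer 1 and control 2, with the other 4 between 1496 and 1517.

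**Figure D3:**
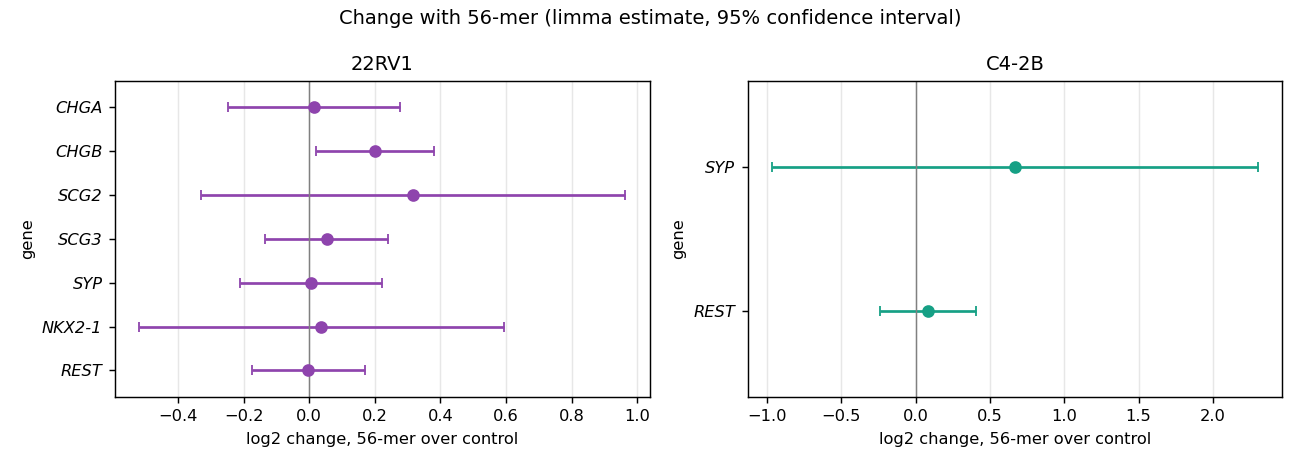
Fitted log2 change, 56-mer over control, with its 95% confidence interval, for the 7 genes tested in 22RV1 (left) and the 2 tested in C4-2B (right), on separate horizontal scales. Every interval but that of CHGB in 22RV1, 0.022 to 0.38, includes 0, and no gene passed after adjustment.

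Those 2 libraries of 22RV1 also stood apart in base composition. Across 12276 genes with a mean above 100 and known GC content, the log2 deviation of a library from the mean of its line followed GC content with a Spearman rho of −0.58 in 56-mer 1 and −0.14 in control 2. It was 0.17 and 0.38 in 56-mer 2 and 3, and 0.12 and 0.30 in control 1 and 3. The exons of REST are 40.0% GC and those of SYP 58.9%. REST was highest and SYP lowest in 56-mer 1 and control 2, whereas CHGA, at 62.4% GC, was lowest in control 2 with 371 and had 430 in 56-mer 3 and 436 in 56-mer 1. The part of the GC trend in these values was not tested beyond a correction. After a lowess correction of each library for GC content and transcript length, the log2 change was −0.039 ± 0.067 (SE) for REST, 0.029 ± 0.092 for SYP, 0.050 ± 0.12 for CHGA and 0.22 ± 0.073 for CHGB, the last with an unadjusted limma p of 0.00392 and an adjusted p of 0.846.

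**Figure D4:**
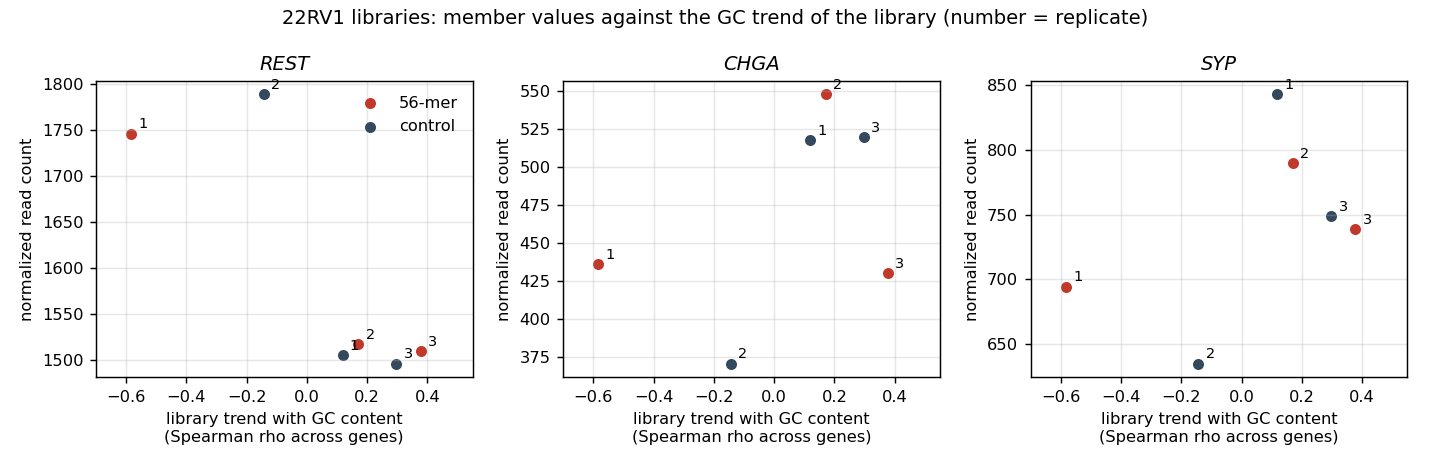
Normalized read counts of REST, CHGA and SYP in the 6 libraries of 22RV1 (vertical axes, not starting at 0) against the Spearman correlation of the library's log2 deviations with GC content. Digits are replicate numbers. 56-mer 1 and control 2, the libraries with a negative trend, have the highest REST, at 1746 and 1789, and the lowest SYP, at 694 and 634.

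In C4-2B 2 of the 9 genes could be tested, REST and SYP, and 0 of these passed, where 11 of 16657 genes passed over the whole table (0.0660%; limma, adjusted p under 0.05). Neither had an unadjusted p under 0.05, where 8.92% of all tested genes did, edgeR called neither, and DESeq2 gave neither an adjusted p. REST had 401, 443 and 360 normalized read counts in C4-2B with 56-mer, against 333, 364 and 442 in C4-2B controls. The groups overlapped for both genes, where 14.7% of all tested genes had groups without overlap, 7.59% higher and 7.08% lower with 56-mer. The log2 change of REST was 0.084 ± 0.16 (SE; interval −0.24 to 0.41; adjusted p = 0.919). The GC trend of the C4-2B libraries had a rho of −0.18, 0.30 and 0.32 in 56-mer 1 to 3 and −0.20, −0.0049 and −0.21 in control 1 to 3. After the GC and length correction the log2 change of REST was 0.21 ± 0.15 (SE; limma adjusted p = 0.757). The part of the trend in these values was not tested further.

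SYP had 29.4, 21.9 and 25.3 normalized read counts in C4-2B with 56-mer, against 35.3, 2.28 and 37.3 in C4-2B controls. The 3 treated libraries lay between control 2, which had 2 reads, and the other controls, which had 33 and 44. The fitted log2 change of 0.67 ± 0.78 (SE; interval −0.97 to 2.30; limma adjusted p = 0.852) turned to −0.50 without control 2, and was 0.024 with edgeR and 0.025 with DESeq2. On means the groups were nearly equal, at 25.6 ± 3.74 with 56-mer and 25.0 ± 19.7 in controls (SD, n = 3).

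The remaining 7 genes stayed near or at 0 in C4-2B with 56-mer. CHGB, SCG3, INSM1 and NKX2-1 had no read in any of the 6 libraries. CHGA had 0, 0 and 7.79 normalized read counts with 56-mer, against 0, 1.14 and 0 in controls, so that its 9 reads in the line came almost wholly from 56-mer 3. SCG2 had 3.92, 0 and 0, against 0, 0 and 8.47, and NCAM1 had 0 in all 3 treated libraries, against 0, 0 and 2.54. For CHGA, CHGB, SCG2 and SCG3, no treated C4-2B library reached the level of any 22RV1 library.

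Whether 56-mer acted differently in the lines could be asked for REST and SYP, the genes past the filter in both. The difference of the log2 changes, 22RV1 minus C4-2B, was −0.087 ± 0.17 for REST (SE; interval −0.44 to 0.27; limma adjusted p = 0.922) and −0.66 ± 1.14 for SYP (interval −3.25 to 1.92; adjusted p = 0.911). Of 15527 genes in this fit 0 passed (0%), with 1227 at an unadjusted p under 0.05, while edgeR called 1 and DESeq2 called 11. Without C4-2B control 2 the difference for SYP was 0.50, and without C4-2B control 1 that for REST was 0.0020. After the GC and length correction the difference for REST was −0.24 ± 0.15 (SE; limma adjusted p = 0.740).

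The further genes of the lineage were tested in the same fits. In neither line did limma call a gene of the 7 further neuroendocrine, vesicle or REST lists, and edgeR and DESeq2 called none either. In C4-2B DESeq2 gave no adjusted p to REST or SYP, so list genes with levels like theirs could not be called there by it. At an unadjusted p under 0.05, 22RV1 had 2 of 9 tested granin and processing genes, 2 of 19 vesicle genes, 0 of 5 relatives of synaptophysin, 1 of 8 transcription factors, 1 of 12 neural markers, and 0 of 19 REST complex genes and 0 of 15 REST targets, against 3.91% of all tested genes. Some genes stand in more than 1 list. PAM had 505, 537 and 482 normalized read counts in 22RV1 with 56-mer, against 476, 411 and 394 in 22RV1 controls. Its log2 change was 0.25 ± 0.12 (SE; limma adjusted p = 0.99958). RAB3C, a vesicle GTPase, had 217, 209 and 200, against 138, 187 and 138 (log2 change 0.45 ± 0.18). POU3F2 had 110, 102 and 91.0, against 56.0, 85.3 and 56.3 (log2 change 0.63 ± 0.25). In these 3 genes the groups did not overlap, and none passed the adjusted threshold. The fitted log2 changes of the 8 tested transcription factors ran from 0.013 to 0.94 in 22RV1, with a median of 0.13. SRRM4 had 6670, 6914 and 7223 in 22RV1 with 56-mer, against 6902, 6062 and 6974 in 22RV1 controls, a log2 change of 0.064 ± 0.060.

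In C4-2B the tested genes of these lists were fewer, with 5 of 11 granin and processing genes, 13 of 22 vesicle genes, 3 of 16 transcription factors, 5 of 15 neural markers and 5 of 16 REST targets, but 18 of 19 REST complex genes. Unadjusted p-values under 0.05 were reached by VGF and L1CAM, against 8.92% of all tested genes of this line. VGF had 351, 332 and 326 normalized read counts in C4-2B with 56-mer, against 216, 304 and 264 in C4-2B controls with a log2 change of 0.37 ± 0.17 (SE; limma adjusted p = 0.540). L1CAM, a neural adhesion protein and REST target, had 14.7, 14.3 and 11.7, against 47.1, 63.9 and 30.5. Its log2 change was −1.67 ± 0.53 (SE; limma adjusted p = 0.392), and all treated libraries lay below all controls, as in 7.08% of all tested genes. The transcription factor SOX11 had 10.8, 22.9 and 59.4 in C4-2B with 56-mer, against 6.42, 18.2 and 5.08 in C4-2B controls, with a log2 change of 1.43 ± 0.78 (SE; limma adjusted p = 0.607) and overlapping groups. Of the 3 tested factors none had an unadjusted p under 0.05 with limma, and 1 had with edgeR and with DESeq2. NKX2-2, another homeobox factor, had 7.84, 6.68 and 12.7, against 0 in all 3 C4-2B controls, on 8, 7 and 13 reads, and was under the filter. Without the filter 9 factors were tested, 0 were called and 1 had an unadjusted p under 0.05. In 22RV1 L1CAM had 269, 362 and 331 with 56-mer, against 385, 291 and 342 in controls, and its groups overlapped. Of the 10 luminal markers none passed in either line with limma. FOXA1, a pioneer factor of the luminal state, had the smallest p in C4-2B, with 2868, 2609 and 2773, against 3560, 3410 and 3505 (log2 change −0.35 ± 0.076, adjusted p = 0.120), and passed with DESeq2, with no filter and after the GC and length correction. FOXA1 did not pass with edgeR, nor in the authors' deposited DESeq comparison of C4-2B, whose lowest adjusted p over all genes was 0.447.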

How the data were processed

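RNA sequencing of 12 libraries (2 lines, 56-mer or control, 3 each) was used as the authors deposited it. The deposited normalized signal values are read counts that the authors divided by a size factor per library: within a tolerance of 0.01 every value is a whole multiple of 1 step, with size factors of 0.732 to 1.18, and whole reads were recovered from these steps for all values. The submitters' processing notes name DESeq without a version. Not given in the sources used here are the aligner, the counter and its strand setting, the genome build and the annotation. The deposited comparison tables hold log2 fold changes, their p-values and a score (Wald statistic), per the file headers, and served only where named. Of 60315 entries per table, 1 has no symbol and holds 0% of reads.

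Genes with a value of at least 10 in at least 3 of 6 libraries were tested per line with limma 3.58.1 in R 4.3.3 (trend and robust variance, two-sided) on log2(value + 1), a scale on which fold changes of low genes are usually understated but can be overstated where 1 library is near 0, with Benjamini-Hochberg adjustment at 0.05. The difference between lines used 1 fit of the 12 libraries. The test was also run on simulated counts with known changes and no GC trend between libraries, unlike these data, and no result here rests on that run. Exon lengths and GC content came from GENCODE 29 by symbol. The alternatives were other scalings, filters and pseudocounts, edgeR 4.0.16, DESeq2 1.42.0 and leaving out each library. The correction for GC content and length (lowess, span 0.3) was chosen after seeing the data.

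The 9 genes and the further lists were chosen with earlier results of these data known. All 9 are named. From each further list the rule named genes past the threshold, the 2 highest per line and up to 3 with the smallest p per line, as well as the 3 genes most correlated with REST and with CHGB. Other list genes were named for their role after their values were seen, and some genes that the rule covers are not reported here.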

Additional observations from a re-analysis of the deposited data

How the results depend on the processing

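None of the 9 genes was called in either line, or in the difference between lines, under any alternative that was run. The number of genes called over the whole table did depend on the setting. In C4-2B, where 11 were called, it was 34 with no filter, 1 without trend and robust variance, 0 with edgeR (1399 at an unadjusted p under 0.05), 42 with DESeq2, 0 at an adjusted p of 0.01, 21 after the GC and length correction, and 0 to 81 on leaving out a library (81 without 56-mer 1, 0 without each of the others). The split of 8 higher and 3 lower became 2 and 8 under quantile normalization and 4 and 7 with equal totals. The authors' deposited DESeq comparison of C4-2B had a lowest adjusted p of 0.447, so no gene passed 0.05 there. In 22RV1, with 2 called, it was 11 with no filter, 0 without trend and robust variance, 0 at 0.01, 7 after the correction and 0 to 11 on leaving out a library. For the difference, with 0 called, it was 1 with quantile normalization, 5 with no filter, 1 without trend and robust variance, 1 with edgeR, 11 with DESeq2, 5 after the correction and 0 to 13 on leaving out a library.

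Values close to 0 changed sign. The log2 change of SYP in 22RV1 was −0.0029 with quantile normalization, −0.011 with equal totals, −0.0045 with edgeR and −0.0039 with DESeq2, and that of CHGA −0.0019 with equal totals and −0.0017 with edgeR. The difference for SYP was 0.018 with edgeR. On leaving out a library, log2 changes ranged in 22RV1 from −0.072 to 0.081 for REST, −0.15 to 0.097 for CHGA, −0.10 to 0.10 for SYP and −0.13 to 0.16 for NKX2-1, with 56-mer 2 and control 2 turning the sign of all 4. They ranged in C4-2B from −0.0054 to 0.20 for REST and −0.50 to 1.27 for SYP, and for the difference from −0.20 to 0.0020 for REST and −1.27 to 0.50 for SYP. CHGB (0.13 to 0.24), SCG3 (0.014 to 0.075) and SCG2 (0.12 to 0.54) stayed above 0 in 22RV1. The cause of these changes was not tested. SYP could not be fitted in C4-2B with a mean of at least 50, and DESeq2 gave no adjusted p for REST and SYP there. No paired analysis was possible because replicate numbers were given by accession order and no label ties a treated library to a control. Few or no reads limit what can be said of INSM1, NCAM1 and, in C4-2B, every gene of the 9 but REST.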

Other observations

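The nearest protein-coding genes on both sides of each of the 9, by gene midpoint in RefSeq, were compared in the controls as RPM, reads scaled to equal library totals. NKX2-8, next to NKX2-1 and also a homeobox gene, had 119 reads in 22RV1 controls and 4 in C4-2B controls, or 3.18 and 0.115 RPM. MBIP, on the other side of NKX2-1, had 18.6 and 11.7 RPM. Beside CHGA, GOLGA5 had 41.1 and 43 and ITPK1 had 101 and 184. Beside CHGB, SHLD1 had 1.44 and 2.24 and TRMT6 had 30.1 and 8.06, and beside SCG3, DMXL2 had 91.7 and 26.9 and LYSMD2 had 18.7 and 15.6. PRICKLE3, next to SYP, had 27.4 in 22RV1 controls and 36.9 in C4-2B controls, and CACNA1F, on its other side, had 28 reads and 3. Beside REST, SPINK2 had 33 reads in 22RV1 controls and 0 in C4-2B controls, and NOA1 had 53.1 and 56.5 RPM. Beside SCG2, KCNE4 had 49 and 9 reads and AP1S3 had 14.3 and 30.8 RPM. INSM1 lies between CFAP61, with 59 and 8 reads, and RALGAPA2, with 47.0 and 21.3 RPM. NCAM1 lies between PLET1, with 19 and 0 reads, and TTC12, with 10.5 and 17.0 RPM.

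Some of the 9 genes overlap genes on the opposite strand, and reads of such pairs cannot be told apart if the counting ignored strand. SYP-AS1 had 612 reads over the 6 libraries of 22RV1 and 3 over those of C4-2B. NKX2-1-AS1 had 99 and 0 reads and AL132857.2, which overlaps NKX2-1 too, had 53 and 0. AC020892.2, opposite SCG3, had 37 and 0. NOA1, which overlaps REST, had 4171 reads in 22RV1 and 3865 in C4-2B. In the controls alone NOA1 had 53.1 RPM in 22RV1 and 56.5 in C4-2B, and REST had 133 and 33.1. Whether reads of NOA1 enter the values of REST was not tested.

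The genes whose log2 values followed REST most closely over the 12 libraries, each taken relative to the mean of its line, included PYROXD1 with a Pearson r of 0.94 and KIFAP3 with 0.92. Over the 6 libraries of 22RV1, CHGB was followed most closely by CAMK4 with 0.99, KCTD7 with 0.98 and AC234775.3 with 0.98. These values are the highest among all tested genes, share library, depth and base composition with the genes they are compared to, and are given as descriptions.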
